A study of Canis lupus familiaris with 25 samples.

Results

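The 12 arrays described here are non-neoplastic mammary glands of dogs, out of 25 arrays in the series, and they fell into glands with and glands without a skeletal muscle signal. The glands were grouped by their own readout: of the 2 probe sets for MYL1, a myosin light chain of fast skeletal muscle, the one with the higher mean over all arrays was taken, and a gland above log2 6 was counted as having the signal. Of 12 glands 6 had it (dogs 7, 10, 11, 12, 13 and 14) and 6 did not (dogs 2, 3, 4, 5, 6 and 8). The gland just inside the threshold, of dog 14, stood at 11.53 on the log2 scale, and the gland just outside it, of dog 8, at 2.56, so that no gland lay near the threshold. Because these arrays chose the groups, every gene difference between them is given as a description and without a test.

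All arrays hold total RNA from domestic dogs (Canis lupus familiaris), with 13 arrays of simple mammary carcinomas that had spread to a lymph node and 12 of mammary gland labelled as normal. The gland and the carcinoma were both measured in 11 dogs, each of which is 1 replicate. No treatment is named, and the tissue was dissected by eye for sections rich in mammary epithelial cells, per the labels' protocol. Glands with muscle signal came from dogs aged 9 to 16 years: West Highland White Terriers (dogs 7 and 10), a French Bulldog (dog 11), a Spitz-Mix (dog 12), a Beagle (dog 13) and a dog of Mixed Breed (dog 14). Glands without it came from dogs aged 10 to 15 years: a Bobtail (dog 2), a Rottweiler (dog 3), Dachshunds (dogs 4 and 8), a Bavarian Mountain Dog (dog 5) and a Golden Retriever (dog 6). No breed label occurs in both groups, so breed and the muscle signal cannot be told apart. Both groups are non-neoplastic tissue of dogs operated for a mammary tumour, not of healthy dogs. The affected lymph node was inguinal in every dog with a carcinoma array except dog 7, in which it was axillary. The labels name no position for the sampled glands. The groups line up with the numbering of the dogs, except for dogs 7 and 8, and the labels do not say what the numbering follows, so an order of collection or processing and the muscle signal cannot be told apart.

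Skeletal muscle contracts through the sarcomere, in which myosin filaments pull on actin filaments under the control of troponin and calcium. Slow fibres, which are rich in mitochondria and myoglobin, and fast fibres, which rely more on glycogen, build the same machine from different isoforms of myosin, troponin and calcium pumps. The mammary gland holds epithelium, fat, vessels, nerves and connective tissue, lies under the skin, and in the dog borders on the skin muscle and the muscles of the chest and belly wall.

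The arrays were alike in overall level, with array medians of 3.56 to 3.77 on the log2 scale, and no arrays were identical (0 pairs). The 3′ minus 5′ difference of the beta-actin control probe sets, a sign of RNA integrity, ran from -1.33 to -0.04 in glands with muscle signal and from -0.62 to 0.15 in the others, and that of GAPDH from -0.04 to 0.14 and from -0.08 to 0.31. Their part in the differences was not tested. Over the 8498 tested genes, the gland of dog 8 had the lowest median correlation with the other glands (r = 0.885) and that of dog 14 the next lowest (0.895), against 0.900 to 0.942 in the remaining glands. The gland of dog 8, the one gland without a carcinoma of the same dog, was near or below log2 4 for several genes that were high in all other glands, and results that it carries are also given without it.

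All 6 muscle markers were high in the 6 glands with muscle signal and separate from the other 6 glands. They were not equally strong in every gland: the gland of dog 14 was the lowest of the 6 for MYL1, MYL2, ACTA1, TNNC1 and MB, but not for TNNC2. Below, values of glands with muscle signal are on the log2 scale in the order of dogs 7, 10, 11, 12, 13 and 14, and those of glands without it in the order of dogs 2, 3, 4, 5, 6 and 8.

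MYL1 stood at 12.18, 12.57, 12.44, 12.04, 12.51 and 11.53 in glands with the signal and at 2.45 to 2.56 in the others. MYL2, the regulatory light chain of slow fibres and of the heart ventricle, stood at 12.50, 12.15, 13.70, 12.53, 11.63 and 8.44, against 2.23 to 2.28. TNNC1, the slow and cardiac troponin C that binds calcium, stood at 12.44, 12.66, 13.53, 12.73, 11.52 and 8.84, against 2.73 to 3.91. For all of these the groups were far apart, and MYL2 and TNNC1 of dog 14 lay below the other 5 glands. TNNC2, the fast troponin C, gave 10.75, 8.86, 8.87, 8.58, 11.33 and 10.61, against 2.11 to 2.21. MB, myoglobin, which stores oxygen in muscle, gave 10.71, 10.98, 11.52, 11.21, 9.61 and 7.06, against 2.46 to 2.74. TNNC2 thus ranked the glands differently from TNNC1 and MB, with dogs 7, 13 and 14 highest.

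ACTA1, the alpha-actin of skeletal muscle, differed from the other markers in being above log2 10 in all glands. It stood at 15.63, 15.84, 16.27, 15.74, 15.60 and 14.73 in glands with the signal and at 12.56, 10.98, 11.75, 11.79, 11.15 and 10.39 in the others. The groups did not overlap for this gene either, with means of 15.63 ± 0.50 and 11.44 ± 0.76 (SD, n = 6 each). In glands without the signal another ACTA1 probe set stood at 3.15 to 3.61 and a further one at 2.40 to 8.06. With the signal they stood at 8.18 to 9.84 and 13.43 to 15.22. The mean of the 5 markers other than MYL1 was at least 9.94 in each gland with the signal and at most 4.51 in each gland without it, so that splitting the glands by those 5 markers gave the same groups.

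In the carcinomas the markers did not share the pattern of the glands. MYL1 stood at 2.41 to 2.61, MYL2 at 2.22 to 2.36, TNNC2 at 2.09 to 2.16 and MB at 2.50 to 2.61 over all 13 carcinomas, the 6 carcinomas of dogs with muscle signal in the gland included. TNNC1 passed log2 4 in 1 carcinoma (4.27), of a dog without the signal in its gland. ACTA1 stood at 8.44 to 10.89 in the carcinomas of dogs with the signal in the gland and at 9.00 to 10.66 in those of dogs without it.

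**Figure D1:**
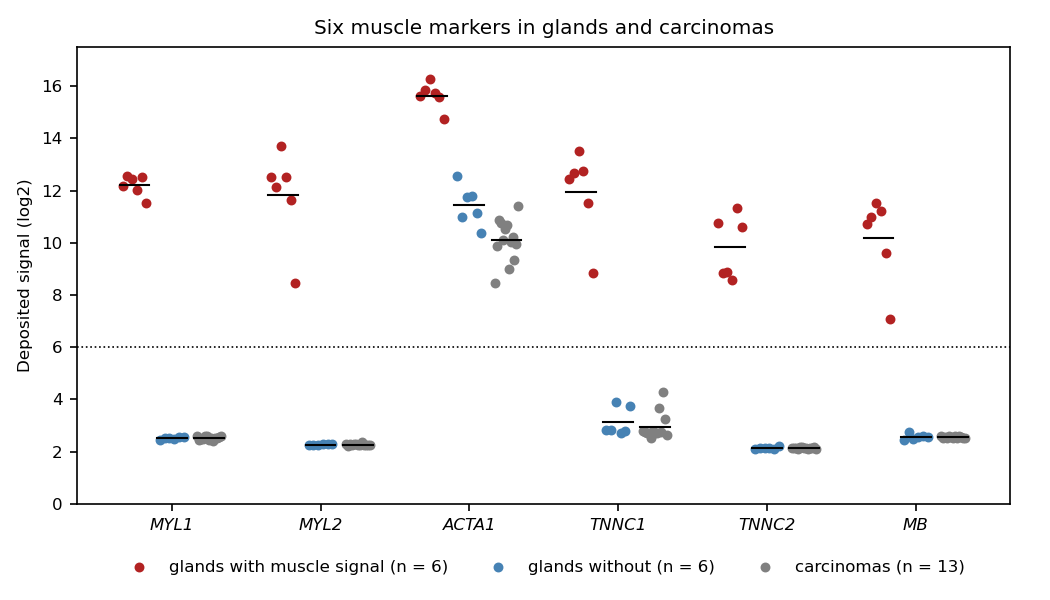
Deposited signal (log2, y axis) of the 6 markers (x axis), 1 point per array and a black line at each group's mean; the dotted line is the threshold of 6 used for MYL1. The glands with muscle signal lie above the other glands for every marker, and the carcinomas lie with the glands without it. ACTA1, in its probe set with the highest mean, is above 8 in all arrays.

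The 2 groups of glands were then compared over all tested genes, the 6 markers included. A gene is called set apart here where the 2 groups of glands did not overlap and their means differed by at least 2-fold. Of 8498 tested genes, those above log2 4 in at least 6 of the 12 glands, 34 were set apart and higher with muscle signal (0.400%) and 2 were set apart and lower (0.0235%). The rule itself fixes that some genes separate these groups, so nothing is read from those shares. With shares this small, a short list is likely to hold 0 set-apart genes. A count of 0 in a list below therefore says little about that list. The median difference over all tested genes was -0.02, and the middle 90% of genes lay between -0.55 and 0.65.

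The 34 genes were mostly parts of the contractile apparatus: 23 stood on the lists of slow fibre, fast fibre and shared sarcomere genes, 27 on any list and 7 on none. Both the 34 and the 23 hold the 6 markers, among them MYL1, which made the groups. In 27 of the 34 every gland without muscle signal was below log2 4; such genes entered the set of tested genes through the 6 glands with the signal alone and had to differ, and the size of their differences against values near the floor of the scale is uncertain. In all 13 carcinomas 22 of the 34 were below log2 4. The gland of dog 14 was the lowest of the 6 glands with the signal in 23 of the 34, and the gland of dog 11 was the highest in 21. Bulk tissue was measured, so a gland with less muscle and a gland whose muscle holds less of a given RNA cannot be told apart.

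**Figure D2:**
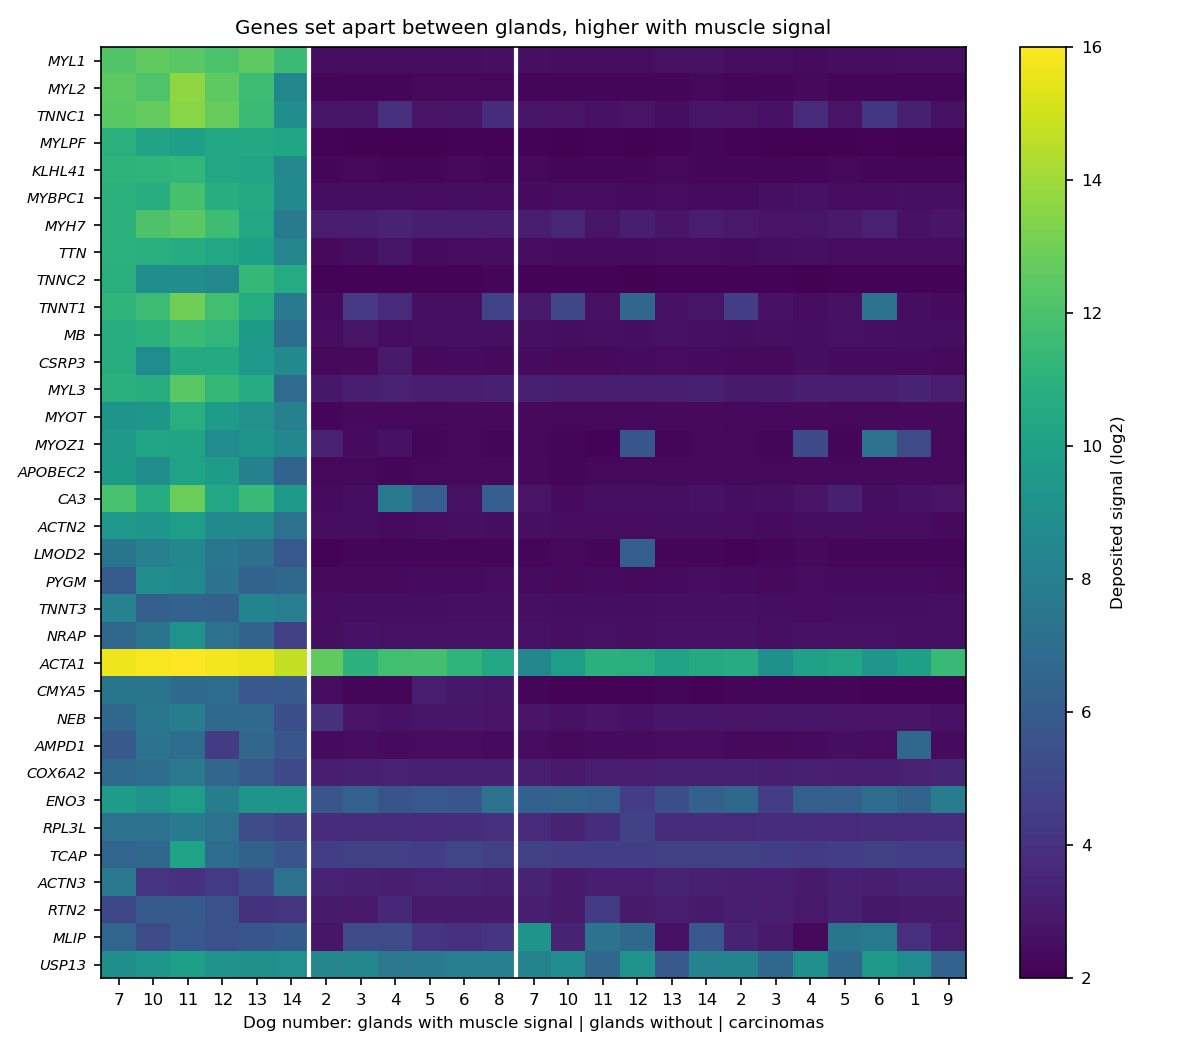
Deposited signal (log2, colour scale) of the 34 genes set apart and higher with muscle signal, ordered by their difference (rows), in the 6 glands with the signal, the 6 without and the 13 carcinomas (columns, by dog number). Most rows are dark outside the first 6 columns, while ACTA1 (in its probe set with the highest mean), ENO3 and USP13 have signal in all glands.

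Most set-apart slow fibre genes were high in 5 of the glands and much lower in the sixth. Of 16 listed slow fibre genes 14 were on the array, 12 were tested and 8 were set apart, and the median difference of the tested members was 7.48. Over all tested genes 0.400% were set apart and higher. The 8 hold the markers MYL2, TNNC1 and MB. All but TNNT1 were below log2 4 in every gland without muscle signal, so once tested they could not overlap. MYH7, the slow myosin heavy chain, stood at 11.01, 12.10, 12.39, 11.65, 10.32 and 7.80, against 3.05 to 3.38 in glands without muscle signal. TNNT1, the slow troponin T that ties troponin to tropomyosin, stood at 11.19, 11.62, 12.97, 11.77, 10.65 and 7.85, against 2.39 to 4.82. MYBPC1, the slow myosin-binding protein C, stood at 10.93, 10.74, 11.94, 10.73, 10.57 and 8.71, against 2.44 to 2.52. The other set-apart members were MYL2, TNNC1 and MB, described above, and MYL3 and CSRP3, a slow light chain and a Z disc protein. In all 8 of the 8, the gland of dog 14 was the lowest of the 6, and in 7 of them the gland of dog 11 was the highest. For CSRP3 the margin was small, with 8.72 in dog 14 and 8.81 in dog 10. Another CSRP3 probe set was lowest in dog 10, at 8.54 beside 8.57 in dog 14.

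The other 4 tested slow fibre genes were not set apart. ATP2A2, the calcium pump of slow fibres and of the heart, which other cells use as well, stood at 11.74, 11.99, 12.65, 11.34, 11.19 and 9.48, against 8.44 to 9.78. The gland of dog 14 alone overlapped the group without muscle signal. TPM3, a tropomyosin found in many cells, stood at 9.60 to 10.45 and 9.20 to 10.29, and MYH7B at 5.81 to 7.12 and 5.79 to 6.88, so that both overlapped. FHL1, a LIM protein of muscle, stood at 10.09 to 13.96 and 10.13 to 12.50.

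The set-apart fast fibre genes were higher in the same 6 glands, with no one gland lowest throughout. Of 16 fast fibre genes on the array 11 were tested and 6 were set apart, with a median difference of 4.73. Over all tested genes 0.400% were set apart and higher. The 6 hold MYL1, which made the groups, and the marker TNNC2. All 6 were below log2 4 in every gland without muscle signal, so once tested they could not overlap. Nothing is read from this count. MYLPF, the regulatory light chain of fast fibres, stood at 10.94, 10.18, 9.93, 10.39, 10.44 and 10.24, a spread of 1.01 between the lowest and the highest gland, against 2.07 to 2.16. For MYLPF and MYL1 the glands with the signal were thus close to each other, dog 14 included. TNNT3, the fast troponin T, stood at 8.23, 6.26, 6.40, 6.31, 8.31 and 7.96, against 2.45 to 2.57. ACTN3, the alpha-actinin of fast glycolytic fibres, stood at 7.59, 4.09, 4.01, 4.41, 5.15 and 7.26, against 3.19 to 3.35. MYOZ1, a Z disc protein of fast fibres, stood at 9.60, 10.22, 10.17, 8.75, 9.24 and 8.52, against 2.19 to 3.29. MYOZ1, like MYL1, was lowest in dog 14. Of the 6 set-apart fast genes, 2 were lowest in dog 14, 2 in dog 11, 1 in dog 10 and 1 in dog 12.

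The fast myosin heavy chains differed widely between glands. MYH2, the heavy chain of fast oxidative fibres, stood at 11.06, 8.78, 5.60, 6.68, 11.13 and 10.81, against 2.68, 3.97, 2.73, 2.94, 3.08 and 6.21. The gland of dog 8, with 6.21, was above that of dog 11, so MYH2 was not set apart although its mean difference was 5.41. MYH1, the heavy chain of faster glycolytic fibres, exceeded log2 4 in 4 glands, at 8.70 in dog 7, 7.09 in dog 14, 5.36 in dog 11 and 4.71 in dog 10. MYH4, a further fast chain, stood at 2.61 to 2.75 in all glands, and PVALB, parvalbumin, at 2.60 to 2.93. MYBPC2, the fast myosin-binding protein C, was at 7.09, 8.03 and 7.83 in dogs 7, 13 and 14 and at 4.82 to 5.12 in dogs 10, 11 and 12, against 4.63 to 5.89 in glands without the signal.

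Slow members were then set against fast members in each gland. Levels of different probe sets cannot be compared, so only the change of this difference from gland to gland is read. The mean of the 12 slow genes minus that of the 11 fast genes was 3.21 in dog 11, 2.44 in dog 12, 1.82 in dog 10, 0.82 in dog 7, 0.33 in dog 13 and -1.49 in dog 14. The paired isoforms of troponin, TNNC1 minus TNNC2 averaged with TNNT1 minus TNNT3, gave the same order of glands, at 5.61, 4.80, 4.58, 2.33, 1.27 and -0.94. MYH7 minus MYH2 gave 6.79, 4.97, 3.32, -0.05, -0.81 and -3.01 in that order too. These troponins and heavy chains are also members of the slow and fast lists, so the 3 measures share genes and their like order is not independent. The gland of dog 14 was at the fast end on all 3 measures. While it was lowest for MYL2, TNNC1 and MB, it was not lowest for MYLPF or TNNC2. It was lowest for MYL1 as well, at 11.53 beside 12.04 in the next gland. The order of the glands also went with other values of the same dogs, whose part in it was not tested. The beta-actin 3′ minus 5′ difference was -1.33, -0.83, -0.78, -0.08, -0.38 and -0.04 in dogs 11, 12, 10, 7, 13 and 14, and their ages were 15, 16, 16, 12, 11 and 9 years.

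**Figure D3:**
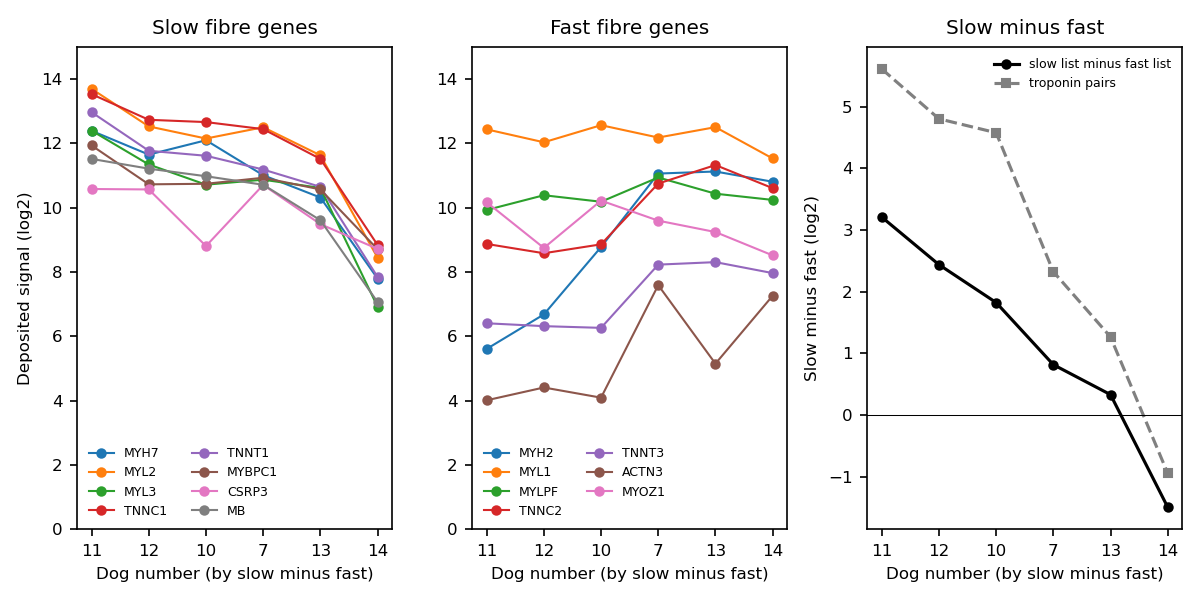
Deposited signal (log2) of the 8 set-apart slow fibre genes (left) and of the 6 set-apart fast fibre genes with MYH2 (middle) in the 6 glands with muscle signal, and the slow minus fast difference (log2, right), with glands on the x axis in the order of that difference; lines join the values of 1 gene or measure and imply no time course. Slow genes are lowest in dog 14, whereas MYH2, TNNC2, TNNT3 and ACTN3 are high in dogs 7, 13 and 14, and the difference runs from 3.21 to -1.49.

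Of the set-apart genes of the sarcomere and Z disc that both fibre types share, most were lowest in dog 14. Of 28 listed genes 27 were on the array, 17 were tested and 9 were set apart, with a median difference of 3.32. Of these 9, 8 were lowest in the gland of dog 14, and for CMYA5 dog 13 (5.82) was below dog 14 (5.92). TTN, titin, the elastic filament of the sarcomere, which was not tested when probe sets were averaged, stood at 10.95, 10.75, 10.69, 10.38, 9.98 and 8.40, against 2.34 to 2.82. KLHL41, which stabilises nebulin, stood at 11.11, 11.14, 11.25, 10.39, 10.22 and 8.59, against 2.18 to 2.28. MYOT, myotilin of the Z disc, stood at 9.23, 9.40, 10.79, 9.76, 9.10 and 8.09, against 2.26 to 2.36. For all 3 the groups were far apart. The other set-apart members included ACTN2, NEB, LMOD2, CMYA5 and TCAP, with differences of 2.40 (TCAP) to 6.36 (ACTN2). Of the members named here, all but TCAP were below log2 4 in every gland without muscle signal, so once tested they could not overlap.

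Further muscle genes passed the groups' separation but not the filter on low values. For most of them the gland of dog 14 was the only gland with muscle signal below log2 4. MYOZ2, the Z disc calsarcin of slow fibres, stood at 8.81, 8.83, 10.79, 8.87, 8.49 and 2.88, against 2.35 to 2.44. STRIT1, a micropeptide that acts on the calcium pump of slow muscle, stood at 8.53, 8.84, 9.49, 8.65, 7.29 and 2.41, against 2.17 to 2.30. MYOM2, an M band protein, stood at 6.77, 6.77, 7.21, 6.30, 6.01 and 2.50, against 2.35 to 2.45. The other glands with muscle signal thus had clear signal for these genes and the gland of dog 14 lay just above the glands without muscle signal. Without the filter 45 genes were set apart and higher, and the 11 added ones included LMOD3, SMPX, CAV3 and ADSS1 at differences of 3.85, 3.83, 2.70 and 2.59. For SMTNL1, LRRC39 and CACNA1S, also among them, further glands with muscle signal were below log2 4. With the gland of dog 14 left out, 39 tested genes were set apart and higher, and the 5 added ones were TMOD4 (4.48), DES (3.96), ATP2A2 (2.68), TRIM54 (2.56) and TRIM63 (1.54), of which DES is desmin, the intermediate filament of muscle.

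The choice of probe set decided some muscle genes. For TRDN, triadin of the calcium release complex, another probe set than the one with the highest mean stood at 6.42 to 8.96 in glands with muscle signal and at 2.03 to 2.09 in the others, whereas the chosen one differed by 0.39. CKMT2, the mitochondrial creatine kinase of muscle, had such a probe set at 4.30 to 9.72 against 3.24 to 3.41, and ATP2A1, the fast calcium pump, at 4.10 to 8.23 against 3.57 to 3.66. ATP2A1 in that probe set was highest in dogs 13 (8.23), 14 (7.76) and 7 (7.46), the glands at the fast end. The chosen probe set of TNNI2, the fast troponin I, stood at 10.69 to 12.03 with and 8.98 to 13.15 without muscle signal, with its highest value in dog 8.

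Several genes that skeletal muscle is known to use were at the floor in every gland. RYR1, the calcium release channel, stood at 2.32 to 2.57 over the 12 glands, and CAPN3, the muscle calpain, at 2.39 to 2.61. None of the 4 tested genes of excitation-contraction coupling was set apart, and 9 of the 15 on the array were below log2 4 in all glands. BIN1, which shapes the tubules of muscle but is also made elsewhere, stood at 7.64 to 9.26 with and 6.36 to 9.00 without muscle signal, and ATP1B1, a subunit of the sodium pump, at 9.39 to 13.02 and 10.78 to 13.61. Both genes overlapped between the groups. A value at the floor does not show that a gene is silent on these arrays: GAPDH, which every cell uses, also stood at 2.39 to 2.55 in all glands in the probe set that carries its symbol.

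Of the regulators of muscle formation only MEF2C and MEF2A were tested, and both overlapped between the groups. Those at the floor in all glands show neither a split nor its absence. The transcription factors MYOD1, MYF5, MYF6 and MYOG, which drive the muscle programme, and PAX7, of satellite cells, stood at 1.67 to 2.64 in all 12 glands, and 13 of the 17 genes of this list on the array were below log2 4 in all glands. MEF2C, which acts with those factors but also in other cells, stood at 7.18 to 8.97 with and 6.92 to 9.07 without muscle signal. MEF2A, its relative, stood at 4.53 to 7.53 and 6.37 to 7.25. MSTN, myostatin, which limits muscle growth, exceeded log2 4 in a single gland, at 8.68 in dog 8, a gland without muscle signal. In the dystrophin complex, which ties the fibre to its matrix, 0 of 7 tested genes were set apart; DMD stood at 9.51 to 11.11 with and 9.78 to 11.70 without the signal. DAG1, dystroglycan, stood at 8.05 to 9.89 and 7.34 to 10.10, and SGCB, a sarcoglycan, at 3.71 to 4.48 and 3.16 to 5.82.

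No gene restricted to heart muscle passed the filter on low values, so none was compared between the groups. Of 11 such genes on the array 8 were below log2 4 in all 12 glands, among them TNNI3, the cardiac troponin I, at 2.38 to 3.13, and MYBPC3, the cardiac myosin-binding protein C, at 2.41 to 2.53. MYL7, the atrial light chain, exceeded log2 4 in dogs 14 (8.10), 3 (7.32), 6 (5.75) and 8 (4.29), across both groups.

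In energy metabolism, a few muscle isoforms were set apart and the general enzymes overlapped. Of 20 tested genes of creatine phosphate, glycogen and glycolysis 3 were set apart, all higher, and the list's median difference was 0.16, against -0.02 over all genes. The list's mean level, which holds those 3 genes, was 8.640 to 9.33 with and 7.96 to 8.635 without muscle signal and so did not overlap. PYGM, the glycogen phosphorylase of muscle, stood at 6.00, 8.86, 8.63, 7.33, 6.40 and 6.71, against 2.33 to 2.45. AMPD1, the AMP deaminase of muscle, stood at 5.90, 7.34, 7.05, 4.43, 6.60 and 5.73, against 2.40 to 2.47. ENO3, the muscle enolase, stood at 9.75, 9.16, 9.82, 7.91, 9.25 and 9.25, against 5.67, 6.42, 5.65, 5.80, 5.71 and 7.20. PYGM and AMPD1 passed the filter on low values through the glands with muscle signal alone, so they could not overlap. ENO3 had signal in every gland, so that its difference of 3.12 lay between measured levels. The general enzymes overlapped: ALDOA, the main aldolase, stood at 12.77 to 13.57 with and 11.96 to 13.65 without muscle signal, and LDHA, lactate dehydrogenase A, at 12.09 to 13.03 and 12.12 to 13.18.

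The respiratory chain gave a like picture. Of 43 tested genes 1 was set apart, COX6A2, the cytochrome oxidase subunit of heart and skeletal muscle, at 6.77, 7.01, 7.61, 6.64, 5.90 and 5.07, against 3.19 to 3.31. COX6A2 too passed the filter through the glands with muscle signal alone. The median difference of the list was 0.08, and its mean level was 11.36 to 11.72 with and 11.13 to 11.86 without muscle signal. COX7A1, the other muscle-enriched oxidase subunit, stood at 9.51 to 10.46 and 8.54 to 11.73, and was highest in dog 8. Of 30 tested genes of the citrate cycle and fatty acid oxidation 0 were set apart, with a median difference of 0.03. FABP3, which carries fatty acids in muscle and in the lactating gland, stood at 7.89, 8.57, 9.43, 8.28, 8.58 and 12.02, against 5.91, 10.36, 6.57, 5.17, 11.45 and 4.88; its difference of 1.74 became 1.24 without dog 8, and the groups overlapped. PDK4, which holds back the use of glucose, stood at 11.29 to 13.27 and 8.09 to 13.18, and its difference of 0.63 was -0.09 without dog 8. Without dog 8 the medians of the lists of creatine phosphate, glycogen and glycolysis, of the respiratory chain and of the citrate cycle were 0.27, 0.16 and 0.11.

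The 7 set-apart genes on no list were APOBEC2, CA3, NRAP, RPL3L, RTN2, MLIP and USP13. APOBEC2, a muscle member of the cytidine deaminase family, stood at 9.63, 8.89, 10.13, 9.75, 8.13 and 6.47, against 2.27 to 2.35. NRAP, which binds nebulin at the ends of myofibrils, stood at 6.60, 7.37, 9.22, 7.26, 6.38 and 4.67, against 2.53 to 2.69. RPL3L, a muscle form of ribosomal protein L3, stood at 4.86 to 7.80, against 3.69 to 3.89, and was not tested when probe sets were averaged. APOBEC2, NRAP, RPL3L and CA3 were highest in dog 11 and lowest in dog 14. Many other set-apart genes had this pattern, ACTN2 and NEB as well as slow genes. CA3, carbonic anhydrase III of slow muscle and of fat, stood at 11.96, 10.65, 12.84, 10.33, 11.45 and 9.53, against 2.42, 2.51, 7.72, 6.20, 2.62 and 6.18. CA3 therefore had signal in 3 glands without the muscle markers. RTN2 stood at 4.06 to 5.97 against 2.97 to 3.61, and MLIP, a lamin-interacting protein of muscle, at 5.27 to 6.54 against 2.84 to 5.27, and it was not set apart under either of 2 other normalizations and not tested when probe sets were averaged. USP13, a deubiquitinase found in many tissues, stood at 8.95, 9.33, 9.88, 9.12, 9.05 and 9.06, against 8.38, 8.42, 7.57, 7.74, 7.98 and 8.06, and at 5.91 to 9.53 in the carcinomas.

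Lower with muscle signal were TRA2A and LOC611771. TRA2A, a splicing regulator, stood at 4.50, 5.54, 4.90, 5.95, 5.64 and 4.81, against 7.03, 6.80, 5.97, 6.58, 7.05 and 6.83, a difference of -1.49. LOC611771, an uncharacterised locus by its symbol, stood at 3.42 to 4.54 against 4.94 to 6.71, a difference of -1.80. For TRA2A the nearest glands of the groups, dogs 12 and 4, were 5.95 and 5.97, so the groups separated narrowly. LOC611771 was below the filter on low values, and so not tested, when the probe sets of a gene were averaged. With 1 gland left out, 2 to 9 genes were set apart and lower.

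No tested gene of nerve or of the nerve-muscle contact was set apart. Over all tested genes 0.400% were set apart and higher and 0.0235% lower. Counts of 0 here and in the lists of other tissues below are near those shares. Of 15 genes of the neuromuscular junction on the array 9 were below log2 4 in all glands, CHRNA1 (the acetylcholine receptor of muscle, 1.82 to 1.95) and MUSK (its organiser, 2.17 to 2.32) among them, and 0 of 5 tested genes were set apart. AGRN, agrin, which gathers receptors at the junction but is also made by other cells, stood at 8.21 to 9.93 with and 8.28 to 9.26 without muscle signal, and ERBB2, a growth factor receptor of that list and of epithelium, at 5.83 to 8.16 and 5.30 to 7.56. The median differences of the junction and nerve lists, 0.26 and 0.46, were 0.02 and 0.26 without dog 8. The list of nerve and Schwann cells had 0 of 6 tested genes set apart, all 6 with a positive difference, with and without dog 8, and 11 of 20 genes on the array below log2 4 in all glands. PMP22, a myelin protein also made by fibroblasts, stood at 9.14 to 10.89 with and 8.42 to 11.01 without muscle signal. MAL, a protein of myelin and of epithelial membranes, stood at 11.70 to 13.16 and 9.01 to 13.71, and its difference of 0.68 was 0.16 without dog 8. NEFM, a neurofilament, was read at 11.24 in dog 5, 7.18 in dog 12, 6.05 in dog 11 and 5.77 in dog 10, across both groups.

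**Figure D4:**
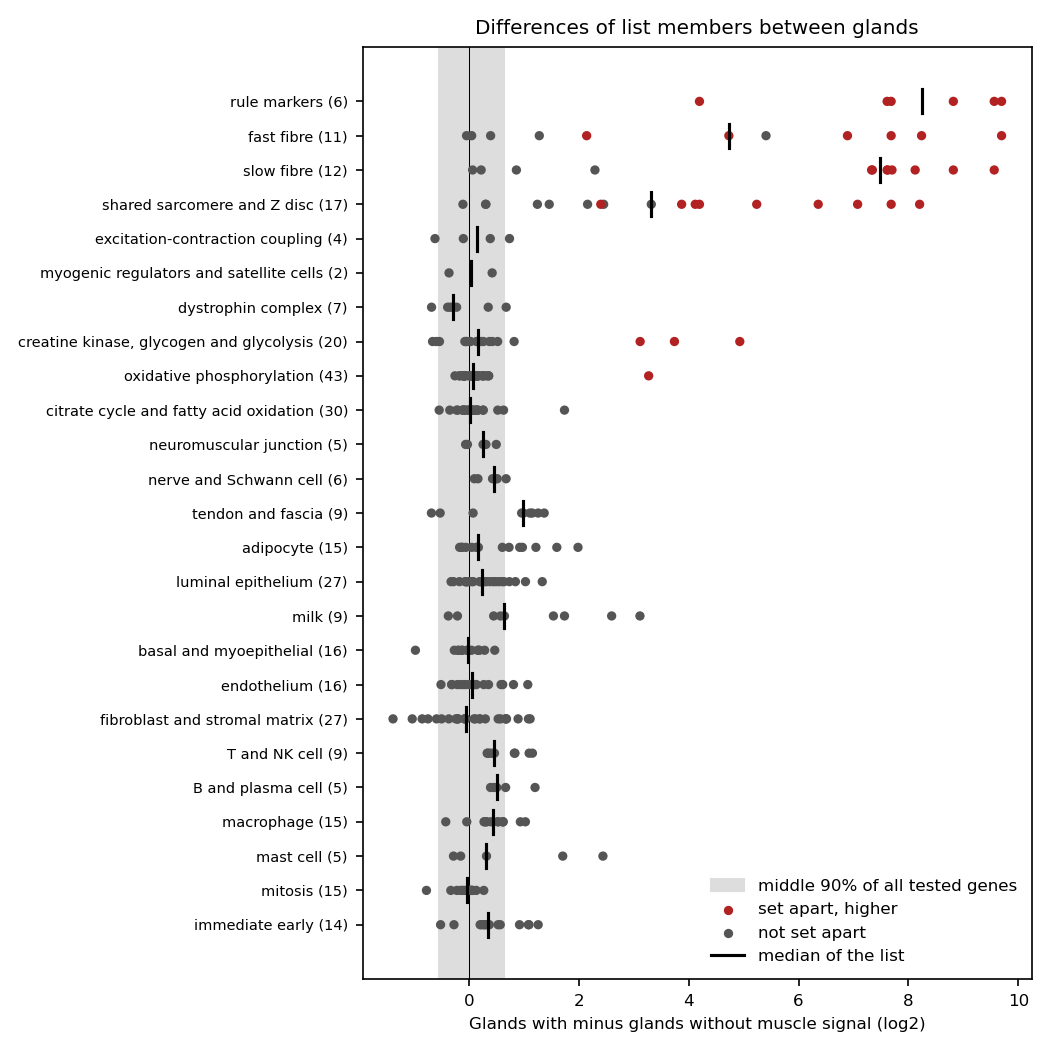
Difference between glands with and without muscle signal (log2, x axis) of each tested member of each list (y axis, with the number tested), 1 point per gene, red where set apart; the black line is the list's median and the grey band holds the middle 90% of all tested genes (-0.55 to 0.65). The slow fibre, fast fibre and shared sarcomere lists reach 8 and more, PYGM, AMPD1, ENO3 and COX6A2 are the red points of energy metabolism, and lists of other tissues lie around the band with no red point.

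Fat genes overlapped between the groups. None of the 15 tested adipocyte genes was set apart, the median difference was 0.17, and the list's mean level was 9.24 to 10.99 with and 7.62 to 10.35 without muscle signal. Without dog 8 that median was 0.08 and the second range 9.09 to 10.35. FABP4, the fatty acid carrier of fat cells, stood at 14.08, 13.07, 14.96, 13.85, 13.47 and 14.59, against 14.41, 14.66, 14.34, 13.77, 13.71 and 3.51. Its difference of 1.60 became -0.18 without dog 8. CIDEA, a protein of lipid droplets, stood at 8.35, 6.70, 11.86, 5.90, 7.42 and 9.40, against 6.32, 4.64, 7.94, 4.54, 8.79 and 5.46. Its difference of 1.99, the largest of the list, was 1.82 without dog 8, and it overlapped between the groups. ADIPOQ, adiponectin, stood at 7.14 to 13.11 and 7.09 to 11.40, and was highest in dog 11, the gland with the highest slow fibre values, and next in dog 4, a gland without muscle signal.

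Connective tissue near muscle was not set apart either. Of 9 tested tendon and fascia genes 0 were set apart, and the median difference of 0.99 was 0.25 without dog 8. DPT, dermatopontin of the matrix, stood at 9.54 to 12.66 with and 6.50 to 11.88 without muscle signal, and THBS4, a thrombospondin of tendon, at 9.45 to 12.81 and 7.67 to 11.34. The general stroma list had 0 of 27 genes set apart and a median of -0.06. TNC, tenascin C, stood at 4.69 to 7.74 with and 5.12 to 9.32 without the signal, the largest negative difference of that list (-1.38); the median was -0.15 without dog 8. MFAP5, of elastic microfibrils, stood at 10.24 to 12.95 and 7.39 to 13.02, and its difference of 1.11 was 0.45 without dog 8. Of 16 tested endothelial genes 0 were set apart, and the list's median was 0.06, or -0.26 without dog 8; CLDN5, a junction protein of vessels, was at 3.41 in dog 8 and at 6.82 to 10.44 in all other glands. ECSCR, a surface protein of vessels, had a difference of 0.81, or 0.15 without dog 8.

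The epithelium that the glands were dissected for overlapped between the groups. Of 27 tested luminal genes 0 were set apart and the median difference was 0.23. EPCAM, an adhesion protein of epithelium, stood at 13.72 to 14.38 with and 13.50 to 14.43 without muscle signal, and KRT8, a keratin of luminal cells, at 12.60 to 14.26 and 12.02 to 14.26. The largest differences were those of PRLR, the prolactin receptor (1.34, and 0.87 without dog 8), and FOXA1, a luminal transcription factor (1.03). Of 16 tested basal and myoepithelial genes 0 were set apart, with a median of -0.02. ACTA2, the smooth muscle actin of myoepithelium and vessels, stood at 14.02 to 14.53 and 13.87 to 14.91, so that smooth muscle actin overlapped between the groups. DSG3, a desmosomal cadherin, stood at 6.36 to 7.62 and 6.08 to 9.58. SFN, a 14-3-3 protein of stratified epithelium, stood at 7.10 to 8.15 and 5.66 to 9.55. KRT71, a keratin of the hair root, the 1 tested gene of skin and its glands, overlapped at 10.37 to 12.09 and 10.48 to 12.43.

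The milk protein genes CSN2 and LALBA were high in all 6 glands with muscle signal and uneven in the others. CSN2, beta-casein, the main milk protein gene, stood at 14.28, 15.28, 14.91, 14.87, 14.70 and 15.41, against 11.23, 15.36, 14.57, 11.01, 15.36 and 3.23. LALBA, alpha-lactalbumin, which is needed to make lactose, stood at 13.78, 14.28, 14.03, 12.76, 12.29 and 15.50, against 9.88, 15.37, 11.07, 7.97, 15.06 and 7.72. Dogs 3 and 6, without muscle signal, were above all glands with it except that of dog 14, so neither gene was set apart. BTN1A1, of the milk fat globule, was uneven in both groups, at 8.97 to 11.98 with and 5.45 to 12.50 without muscle signal. Of 9 tested milk genes 0 were set apart, and the list's median difference was 0.65, or 0.60 without dog 8. The difference of CSN2 was 3.11 with dog 8 and 1.40 without it, and that of LALBA 2.60 and 1.91.

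Most immune genes had positive differences, and none of those tested was set apart. All 9 tested T and NK cell genes had a positive difference (median 0.47), as had all 5 of B and plasma cells (0.51) and 13 of 15 of macrophages (0.44), and 0 of these were set apart. Over all genes 4000 of 8498 differences were positive. NKG7, of cytotoxic granules, stood at 5.68, 4.24, 6.19, 6.63, 5.85 and 4.19, against 4.16 to 4.76, so that 4 glands with muscle signal lay above all others and those of dogs 10 and 14 did not. LCK, a kinase of T cells, stood at 5.50, 4.34, 6.41, 6.10, 6.51 and 3.50, against 5.95, 3.84, 3.66, 4.29, 4.23 and 3.44. JCHAIN, which joins secreted antibodies, stood at 13.44 to 15.58 and 12.26 to 15.42, and DERL3, of the secretory pathway of plasma cells, at 3.46 to 8.03 and 3.39 to 4.90. In macrophages CSF1R, the receptor for their growth factor, stood at 7.93 to 9.99 and 6.78 to 9.55, and FCER1G, an Fc receptor chain, at 4.25 to 7.32 and 3.37 to 6.00. The medians of B and plasma cells and of macrophages were both 0.30 without dog 8. Their positive differences then numbered 4 of 5 and 11 of 15, while those of T and NK cells stayed at 9 of 9. CPA3, the carboxypeptidase of mast cells, stood at 5.68 to 10.90 with and 2.66 to 10.32 without muscle signal, with a difference of 2.44, or 1.59 without dog 8. CMA1, the mast cell chymase, differed by 1.71, or 0.96 without dog 8. The mast cell list had 0 of 5 genes set apart, 3 of 5 differences positive and a median of 0.32.

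Genes of dividing cells and immediate early genes overlapped too. Of 15 tested genes of mitosis 0 were set apart (median -0.04), and TOP2A, the topoisomerase of dividing cells, stood at 4.54 to 9.04 with and 5.48 to 9.37 without muscle signal. TPX2, of the mitotic spindle, stood at 3.09 to 5.64 and 3.93 to 5.70. Of 14 tested immediate early genes, which respond within minutes to stimulation or to handling of tissue, 0 were set apart (median 0.34). EGR1, one of them, stood at 9.16 to 12.31 and 7.87 to 11.07. ATF3, a stress-induced factor, stood at 4.16 to 8.34 and 3.55 to 6.15, and the list median was 0.23 without dog 8.

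**Figure D5:**
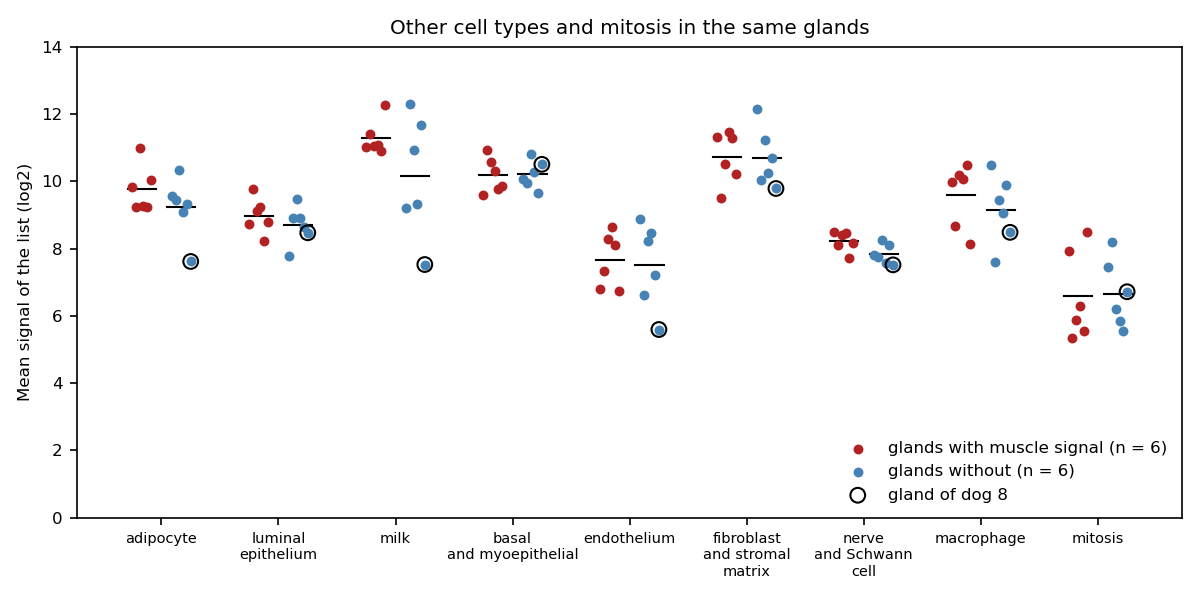
Mean signal of the tested members of 9 lists (log2, y axis) in each gland, 1 point per gland, with a black line at each group's mean and a ring around the gland of dog 8. The groups overlap for every list shown, and the gland of dog 8 is the lowest gland for adipocyte, milk and endothelial genes.

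The carcinomas of the same dogs allowed a test on arrays that the split had not used. Carcinomas of 6 dogs with muscle signal in the gland were set against those of 5 dogs without it, to ask whether the split of the glands went with a difference in the tumours. With limma and Benjamini-Hochberg adjustment, 0 of 20744 probe sets were called (0%), in either direction, and the smallest adjusted p was 0.998. At an unadjusted p under 0.05 there were 814 (3.92%). AGR2, a secretory pathway protein of epithelium with the smallest p, stood at 8.62, 10.31, 8.79, 9.57, 11.52 and 8.35 in the carcinomas of dogs 7, 10, 11, 12, 13 and 14 and at 5.16, 6.61, 6.36, 6.27 and 4.10 in those of dogs 2, 3, 4, 5 and 6. The groups did not overlap for AGR2, and the difference was 3.83 (95% confidence interval 2.45 to 5.20), with limma p = 5.82e-05 before and 0.998 after adjustment. Next by p were CBLC, a ubiquitin ligase of epithelium (1.46), and WASL, which drives actin assembly (1.63), each with an adjusted p of 0.998 in limma. A smallest adjusted p of 0.133 was reached when dog 6 was left out and 0.145 when dog 7 was left out, and 0 probe sets were called in any of these fits.

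Age, carcinoma size and survival overlapped between the groups, whereas the breeds did not. Dogs with muscle signal in the gland were 13.2 ± 2.93 years old (SD, n = 6) and those without 12 ± 2 years (n = 6), a difference of 1.17 years with p = 0.494 in a 2-sided exact permutation test, for which the smallest possible p is 0.00216. Carcinoma size was 1.92 ± 1.36 cm (n = 6) and 2.8 ± 1.48 cm (n = 5), with an exact permutation p of 0.403. Survival after surgery was 4.8 ± 3.9 months and 5.6 ± 1.82 months (n = 5 each), with an exact permutation p of 0.754. Adjusted over these 3 tests, the exact permutation p-values were 0.740, 0.740 and 0.754. Groups of this size leave wide room for differences that these tests would miss.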

How the data were processed

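Each array gave 1 deposited value per probe set on the log2 scale, normalized by the authors; per the submitters' processing notes the tools were Partek, GCRMA and RMA, for which no version or role is stated. Values crowd near log2 2, and scanner files were not analysed here. The number of arrays limits the precision, and p-values measure the spread between dogs. Of 43035 probe sets, 111 controls were left out and 29703 had a platform annotation; 439 with several symbols were not named. The Entrez IDs of 27690 were found in a RefSeq gene table, which changed 0 symbols. Each of 15115 genes was represented by its brightest probe set (by the mean of the 25 arrays), and 8498 genes above log2 4 in at least 6 glands were compared by means, SD and overlap, with no further normalization.

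The carcinoma comparison used limma 3.58.1 under R 4.3.3 (eBayes with a mean trend; probe sets above log2 4 in at least 5 of 11 carcinomas; 2-sided, threshold 0.05). Other computations used Python 3.11.15 with pandas 2.3.3 and scipy 1.17.1. The steps were checked on simulated data. Alternatives were other fold minimums, filters, normalizations, probe set choices, splits, and leaving out each dog.

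The members, the 27 gene lists and the comparisons were chosen with earlier results of these data known. Named genes were the 6 markers, the 3 set-apart members of each list with the largest difference (or the 2 largest differences where none was), set-apart genes on no list, and the 3 smallest p in carcinomas; other genes, including list members given as examples, were chosen after their values were seen.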

Additional observations from a re-analysis of the deposited data

Results flagged for a closer look

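The 6 muscle markers and the means of the gene lists were examined in each group of glands for a gland far from the other 5. Of 60 groups in all, 3 were found, and chance gives about 1 in 20 groups. The markers are also members of some lists, so the 60 groups are not independent. The mean of the 6 muscle markers was 10.20 in the gland of dog 14 and 12.03 to 12.72 in the other 5 glands with muscle signal. The mean of the milk genes was 12.28 in the same gland of dog 14 and 10.90 to 11.41 in the other 5. Among glands without muscle signal, the mean of the fast fibre genes was 5.56 in the gland of dog 8 and 4.99 to 5.16 in the other 5. These values are given without an explanation, and their cause was not tested.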

How the results depend on the processing

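The 34 genes set apart and higher numbered 31 to 45 under other fold minimums, filters, normalizations, probe set means and splits, and 34 to 39 with 1 gland left out; the main 34 were all among those in each left-out fit. For the higher genes, only counting each probe set on its own went outside 1.5 times the count, with 68 of 20599. That alternative, chosen after seeing the data, gave 18 lower. The 2 lower genes became 21 with no fold minimum, 0 at a fold minimum of 4, and 2 to 9 with 1 gland left out. Several planned settings thus took the lower count outside 1.5 times its main value. Averaging the probe sets of a gene gave 31 higher, 28 of them shared, and 3 lower, 1 of them shared; 8 named genes then fell below the filter, of which 4 had been set apart (TTN, RPL3L, MLIP and LOC611771). Slow minus fast moved to 4.58, 5.61 and 4.80 in dogs 10, 11 and 12 with the troponin pairs alone, and the order of glands was the same. The troponins are members of the full lists too, so the orders are not independent. MYL1 thresholds of log2 5 and 8 and the other 5 markers gave the same groups. Among the fits in which a named gene was tested, 934 differences kept their call or, where not set apart, moved by less than the SD between glands, 1 became set apart (FCER1G without dog 4) and 2 were lost (MLIP under both other normalizations, at 1.53 and 1.49); of the list medians 392 moved by less than the SD of the list mean between glands and 8 by more. The carcinoma comparison called 0 probe sets in every fit, and the age p was 0.208 to 0.775 with 1 dog left out. No paired analysis was possible because each dog lies in 1 group. Values near the floor limit the size of differences.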

Other observations

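Across the split, the glands of dogs 3, 6 and 14 shared high values of genes made in the lactating gland and of 2 genes from other lists. These genes were picked after their values were seen, and no test was made. BTN1A1, butyrophilin of the milk fat globule, stood at 12.41, 12.50 and 11.98 in dogs 3, 6 and 14 and at 11.64 in dog 10, against 5.45 to 9.78 in the other glands. FABP3 stood at 10.36, 11.45 and 12.02 in these 3 glands and at 4.88 to 9.43 in the others. S100B, a calcium-binding protein known from Schwann cells and fat, stood at 11.48, 10.47 and 11.80, against 4.57 to 8.82, and MYL7, the atrial light chain, at 7.32, 5.75 and 8.10, against 2.40 to 4.29. Only the gland of dog 14 among these had muscle signal.

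The gland of dog 8 had signal for the muscle genes MSTN and MYH2 without the markers. MSTN stood at 8.68 there and at 2.14 to 2.54 in the other 11 glands, and MYH2 at 6.21 against 2.68 to 3.97 in the other glands without muscle signal. TNNI2 was highest there, at 13.15, but its probe set was bright in all 12 glands, with and without muscle signal. FABP4, CSN2, CLDN5 and CPA3 were at 3.51, 3.23, 3.41 and 2.66 in the same gland. These genes were also picked after their values were seen.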
